A study of Rattus norvegicus with 30 samples.

Results

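Ribosomal protein genes of the rat were followed in testes growing in vivo and in testicular explants matured in organotypic culture. Members were the rows whose gene symbol is Rpl or Rps followed by a number, with or without a final a, x, y or l, or is Rpsa, Rplp0, Rplp1 or Rplp2. A mean of at least 0.5 FPKM (fragments per kilobase of transcript, scaled to how many reads each library mapped) in at least 1 group was also required. Of 17322 genes in the deposited table, 78 had such a symbol and 63 of these reached the mean, 40 for proteins of the large subunit and 23 for proteins of the small subunit. Of the 63, 31 were above 0 in all 29 libraries used and 32 were listed at 0 in at least 1 library.

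The study set cultured prepubertal rat testis against testes of growing and adult animals. In vivo testes came from male Wistar Han rats killed at 8.5 and 14.5 days postpartum (dpp), at 24.5, at 30.5, at 36.5 and, as adults, at 53.5 dpp, with 3 libraries per age and 2 at 14.5 dpp, where the third column is labelled as an outlier and is listed at 0 for all genes. Explants were cut from 8.5 dpp testes and kept at a gas-liquid interphase on agarose, in a medium with knock-out serum replacement, retinol and vitamin E. Explants were taken after 6 (D6), 16 (D16), 22 (D22) and 28 days (D28). D6 is set against 14.5 dpp by age, D16 against 24.5 dpp, D22 against 30.5 dpp and D28 against 36.5 dpp. Each of the 3 libraries per culture time pooled explants of several males after the necrotic centre had been cut away, so that an explant library is no single animal. The labels name no mutation and no test compound for any group. The table holds no counts, and the sequencing depth under these values is therefore not known.

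Every ribosome is built from ribosomal RNA and a set of small proteins, 1 set in the small subunit, which reads the mRNA, and another in the large subunit, which joins amino acids. Their genes are scattered over the genome and are transcribed at high rates in growing cells. Many of their mRNAs begin with a cytosine inside a run of pyrimidines, the 5′ terminal oligopyrimidine (TOP) tract, through which mTOR signalling sets their translation. Ribosomal proteins are often used as reference genes in tissue comparisons. In male germ cells the X chromosome is silenced at meiosis, and some X-linked ribosomal protein genes have autosomal copies that are used in the germ line, as Rpl39l is for Rpl39.

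RefSeq promoter entries of the GRCr8 build, with 250 bases before and 50 after each annotated start, were found for 50 of the 63 members. These 50 genes lay on 17 chromosomes, 3 of them on X. The words TCTTT or CCTTT, read on the coding strand within 10 bases of the start, stood in 25 of the 50 (50%), and in 1160 of all 27457 genes with an entry (4.22%). On the other strand of the same windows the words stood in 0 of the 50 and in 4.52% of all. CCGGAAG on either strand of the 300 bases, a motif that contains the core of ETS factor sites, was in 13 of the 50 (26%) and in 9.22% of all, and TATAAA was in 14% and 14.3%. A match describes the letters only. The windows below are shown because their genes carry the results. Each runs from 40 bases before to 20 bases from the start on, the start being base 41. The word is in capitals only where it lies within 10 bases of the start.
Rpl10 (chrX:157205810-157205869, plus strand): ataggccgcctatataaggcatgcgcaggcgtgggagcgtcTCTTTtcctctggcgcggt
Rpl39 (chrX:121195877-121195936, minus strand): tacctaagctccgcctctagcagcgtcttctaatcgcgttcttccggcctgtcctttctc
Rpl39l1 (chr10:5966602-5966661, minus strand): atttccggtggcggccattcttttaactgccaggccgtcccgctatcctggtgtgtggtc
Rplp0 (chr12:46718371-46718430, minus strand): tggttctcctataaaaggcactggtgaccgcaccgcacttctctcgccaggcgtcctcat
Rpl9 (chr14:43247550-43247609, plus strand): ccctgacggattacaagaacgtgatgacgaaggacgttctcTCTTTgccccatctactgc
Rps15 (chr7:10068096-10068155, minus strand): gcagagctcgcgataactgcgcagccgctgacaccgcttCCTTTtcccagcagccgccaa
Rpl10 and Rpl9, which fell steeply with age, and Rps15, which fell little, all held a word within 10 bases of the start. Rpl39, Rplp0 and Rpl39l1 held none there, though Rpl39 and Rpl39l1 hold one farther out in the printed bases. The words do not cover every run of pyrimidines: from base 41 on, Rpl39 reads cttcc and Rplp0 ctctc.

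Genes listed at 0 in some libraries had to be set apart before any course was read, since a value of 0 for a ribosomal protein in a whole testis can be a failed estimate. The 9 members listed at 0 in 1 to 6 libraries included Rpl13a, Rpl17, Rpl18, Rpl35, Rpl36a, Rps21 and Rps27l. Those at 0 in 11 to 17 libraries were the 7 genes Rpl23, Rpl27, Rpl36, Rpl6, Rps26, Rps27a and Rps7. A further 16 were at 0 in 20 to 28 libraries, among them Rpl12, Rpl19, Rpl21, Rpl24, Rpl26, Rpl30, Rpl34, Rplp1, Rps15a, Rps23, Rps24, Rps25, Rps28 and Rps6. Rplp1, the acidic stalk protein, was listed at 571 FPKM in 14.5 dpp replicate 1 and at 0 in the other 28 libraries. Rps6, the small-subunit substrate of S6 kinase, was listed at 394 FPKM in 8.5 dpp replicate 3 alone, and Rps24 at 259 FPKM in D16 replicate 2 alone. Rpl23 moved between 0 and 1045 FPKM among the 8.5 dpp libraries. In 13 further rows of such a symbol, all libraries were at 0.

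Such jumps were more frequent in members than among other genes. Of members that reached 100 FPKM in some library, 17 of 42 (40.5%) were listed at 0 in at least 1 library, against 243 of 1611 other genes (15.1%). RefSeq names many processed pseudogenes after ribosomal protein genes, and reads shared with such copies could be split by the authors' counting. The number of pseudogenes named for a gene had a median of 11 in the 31 members without a 0, 11 in the 32 with one, and 12 in the rows at 0 throughout. Whether pseudogenes took part in the zeros was not tested. Levels and fold changes of the 32 are therefore uncertain, and the courses that follow rest on the 31 genes above 0 in every library, 22 of the large subunit and 9 of the small subunit.

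**Figure D1:**
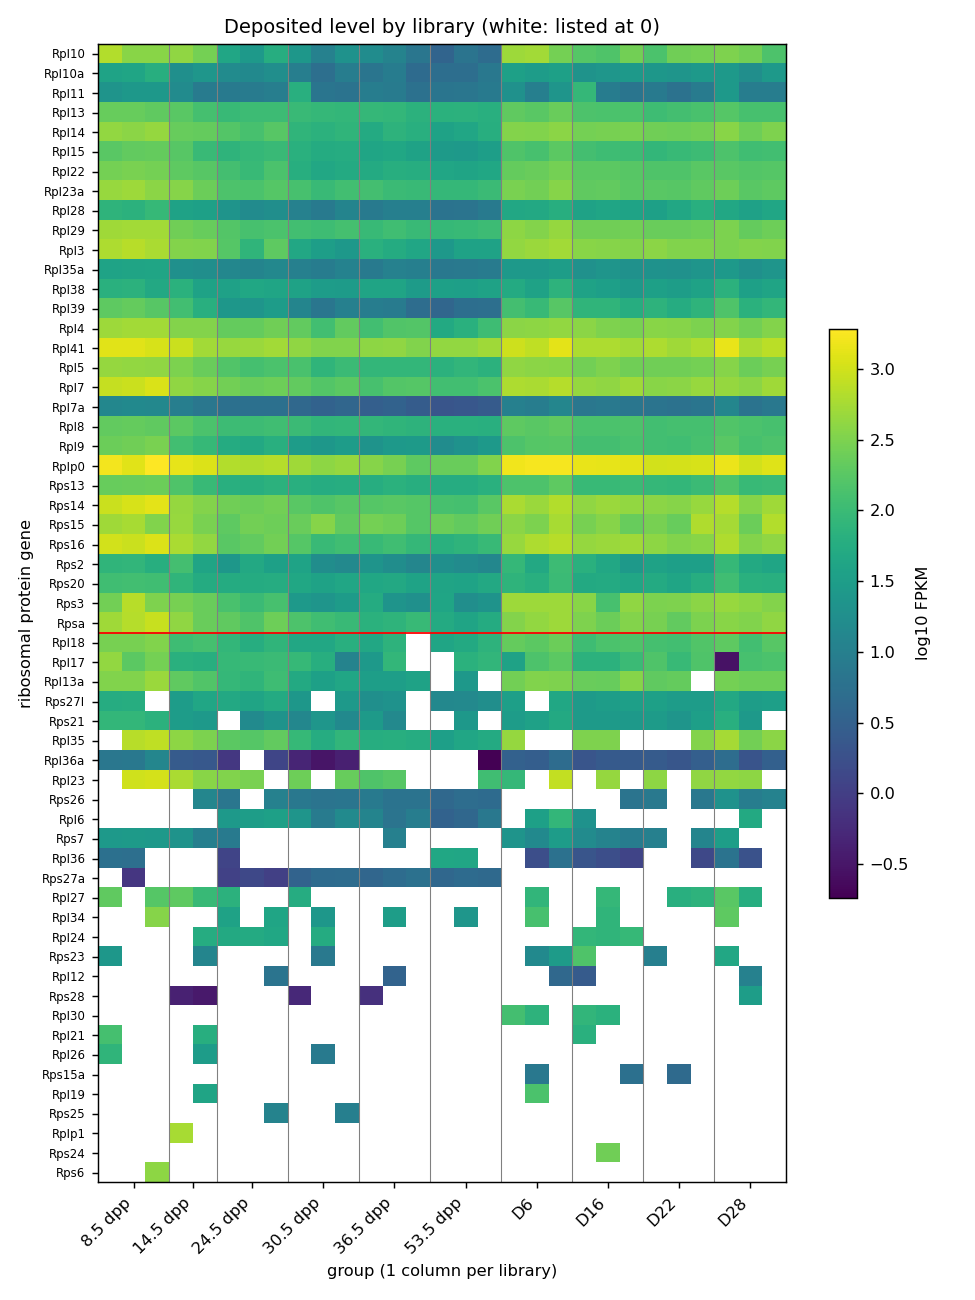
Level of 58 of the 63 ribosomal protein genes (rows) in the 29 libraries (columns, by group), as log10 FPKM, with white for a value listed at 0. The 30 genes above the red line have a value in every library, and those below are ordered by their number of zeros, from 1 in Rpl18 to 28 in Rplp1, Rps24 and Rps6.

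The 31 genes lost most of their share of the testis transcriptome in vivo. Their summed FPKM made up 4.15%, 4.23% and 4.37% of all FPKM in the 8.5 dpp testes, 3.08% and 2.31% at 14.5 dpp, and 1.46%, 1.38% and 1.65% at 24.5 dpp. The share went on to 1.12%, 0.892% and 0.950% at 30.5 dpp, 0.825%, 0.826% and 0.722% at 36.5 dpp, and 0.598%, 0.571% and 0.707% at 53.5 dpp. At each of the 5 steps the libraries of an age lay below all those of the age before. Cultured tissue kept a larger share, with 3.46% ± 0.305 after 6 days and 2.49% ± 0.0562 after 16 days (SD, n = 3). After 22 days it was 2.30% ± 0.187, and 2.72% ± 0.517 after 28 days. D28 replicate 1, at 3.26%, stood above the other two, at 2.23% and 2.66%. Large-subunit genes made up between 63.6% and 68.9% of the summed FPKM of the 31 as a group mean, in testes and cultures alike.

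**Figure D2:**
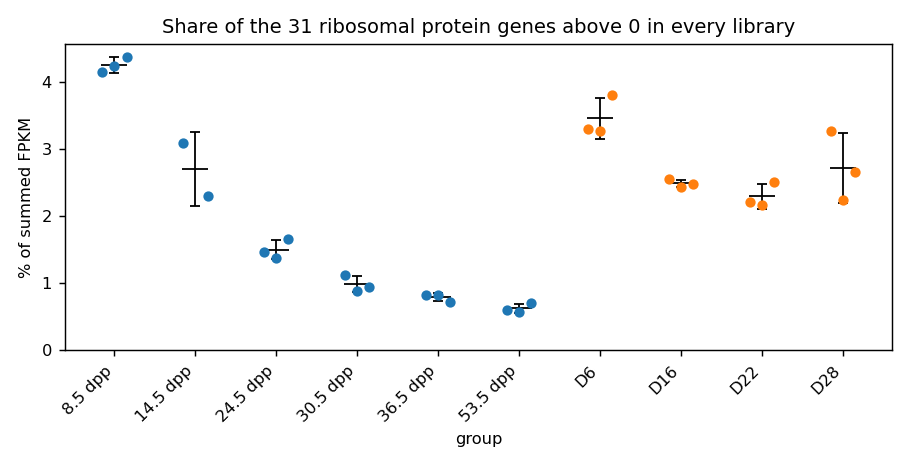
Share of the summed FPKM of each library that the 31 ribosomal protein genes take, in percent, with 1 point per library (blue, testes in vivo; orange, cultured explants), a black dash for the group mean and bars for the SD. The share goes from 4.25% at 8.5 dpp to 0.625% at 53.5 dpp, and lies between 2.30% and 3.46% in culture.

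The in vivo question was how the genes change from the age of dissection to adulthood. All 31 were lower at 53.5 dpp than at 8.5 dpp, with every 53.5 dpp library below every 8.5 dpp library, an order that 59% of all 12531 genes tested also showed. By group means, the fall ran from 1.73-fold in Rpl38 to 92.5-fold in Rpl10, with a median of 6.67-fold, and it was over 4-fold in 23 of the 31. Values peaked at 8.5 dpp in 29 genes, were lowest at 53.5 dpp in 26, and went down at each of the 5 steps between ages in 20. The shares of all genes with such orders, or with a fall over 4-fold, are not given here. In bulk tissue, fewer cells of a type and less RNA per cell cannot be told apart.

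In limma on log2(FPKM + 1), with p adjusted by Benjamini-Hochberg over all genes, 31 of the 31 fell from 8.5 to 53.5 dpp, where 58.3% of all genes tested fell. Among all 63 members, 55 passed the filter on low values, and 40 of these fell and 3 rose. The median log2 change of the 55 was -2.47, that of the 31 was -2.71, and that of all genes tested was -0.74. Earlier ages gave 23 of the 31 lower at 14.5 dpp (15.9% of all genes), 31 at 24.5 dpp (36%), 30 at 30.5 dpp (49.5%) and 31 at 36.5 dpp (53.7%), each against 8.5 dpp. The count at 14.5 dpp rests on 2 testes, of which replicate 1 was above replicate 2 in 30 of the 31 genes. Without 14.5 dpp replicate 2, fewer members passed the test there in either direction than the 26 with it. That fit keeps 1 library of 14.5 dpp, and the count of all genes under it is not given here. Of 24 genes with a 0 somewhere that passed the filter, 9 fell and 3 rose by 53.5 dpp. The share of all genes called higher was 28.7% at 53.5 dpp. At 24.5 dpp 4 members were higher (34.5% of all genes), at 30.5 dpp 3 (32.9%), at 36.5 dpp 3 (31.8%) and at 14.5 dpp 2 (22.7%), none of them among the 31. The 31 were chosen for having no value of 0, so a gene rising from 0 could not be among them. The 3 that rose by 53.5 dpp were Rpl6, Rps26 and Rps27a, the ubiquitin fusion, all at or near 0 at 8.5 dpp, and these rises rest on values of 0.

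Median-ratio size factors, another scaling of the libraries, moved the median of all genes from -0.74 to 0.09 and that of the members from -2.47 to -1.49. Relative to all genes, the members' median was lower by 1.73 on the log2 scale as deposited and by 1.59 after that scaling.

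**Figure D3:**
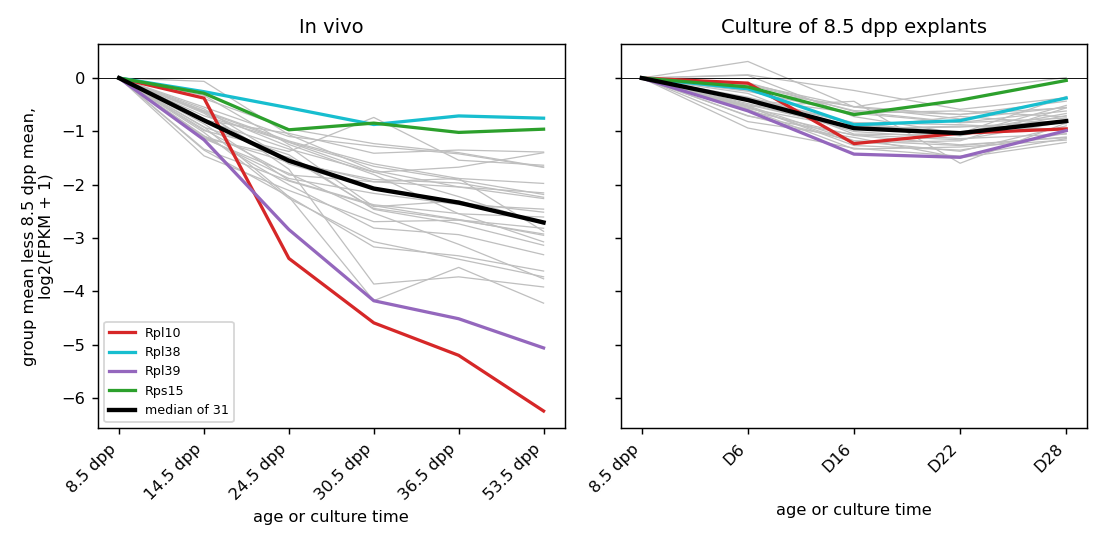
Course of the 31 ribosomal protein genes, as the group mean of log2(FPKM + 1) less the 8.5 dpp mean, over in vivo ages (left) and over culture of 8.5 dpp explants (right). Each grey line is a gene, coloured lines are the named genes, and the black line is the median of the 31, which reaches -2.71 at 53.5 dpp and -0.81 at D28.

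By 53.5 dpp, Rpl10 and Rpl39, the X-linked pair among the 31, had fallen farthest. Rpl10, a large-subunit protein needed for the late joining of the subunits, was at 651, 368 and 370 FPKM at 8.5 dpp and at 419 and 280 FPKM at 14.5 dpp. At 24.5 dpp it was at 44.1, 27.7 and 59.6 FPKM, and at 53.5 dpp at 3.68, 6.52 and 4.81 FPKM. The groups of 8.5 and 14.5 dpp overlap, and all older libraries are far below both. From 8.5 to 53.5 dpp, Rpl10 fell by 6.24 ± 0.37 on the log2 scale (SE, limma adjusted p = 4.46e-10).

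Rpl39, a very small protein at the exit tunnel of the large subunit, was at 192, 214 and 172 FPKM at 8.5 dpp and at 3.91, 5.21 and 5.32 FPKM at 53.5 dpp. It fell by 5.06 ± 0.25 (SE, limma adjusted p = 6.36e-11), already by 1.16 ± 0.28 at 14.5 dpp (adjusted p = 0.0049). Rpl36a, the third X-linked member with a promoter entry, was at 7.10, 7.35 and 12.9 FPKM at 8.5 dpp, was listed at 0 in all 36.5 dpp libraries and reached 0.183 FPKM in 1 library of 53.5 dpp. Rps4x, whose symbol also meets the rule, was listed at 0 in all 29 libraries and so was not followed.

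Rpl39l1, which RefSeq also names Rpl39l, the autosomal copy of Rpl39 on chromosome 10, took the opposite course. It is no member by its symbol. Its values were 65.0, 72.5 and 82.1 FPKM at 8.5 dpp, 718, 795 and 595 FPKM at 24.5 dpp, and 1491, 1353 and 1804 FPKM at 53.5 dpp. The rise to 53.5 dpp was 4.38 ± 0.13 on the log2 scale (SE, limma adjusted p = 6.02e-13), and the groups do not overlap. Of the summed FPKM of Rpl39 and Rpl39l1, the copy made up 27.6% ± 4.04 at 8.5 dpp and 99.7% ± 0.0629 at 53.5 dpp (SD, n = 3). In culture it made up between 38.0% (D6) and 48.8% (D22) as a group mean, with all 12 libraries of Rpl39l1 between 54.6 and 104 FPKM. With short reads, how reads shared by the pair were placed is not known here. Rpl10l, the autosomal copy of Rpl10, was not analysed here.

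Other paralogs outside the symbol rule moved less than Rpl39l1 between 8.5 and 53.5 dpp, but farther from 8.5 dpp at an age between. At 24.5 dpp the log2 change was 0.80 ± 0.10 in Rps4y2 (SE, limma adjusted p = 3.65e-06) and -1.18 ± 0.13 in Rpl22l1 (adjusted p = 1.44e-06). In Rpl36al1 it was -0.41 ± 0.13 at 14.5 dpp (adjusted p = 0.0206). Rps4y2 was at 133, 118 and 107 FPKM at 8.5 dpp, at 212, 201 and 214 FPKM at 24.5 dpp and at 115, 105 and 110 FPKM at 53.5 dpp. Between 8.5 and 53.5 dpp its log2 change was -0.11 ± 0.10 (SE, limma adjusted p = 0.292), which turned to 1.11 under median-ratio size factors. Rpl36al1 changed by -0.21 ± 0.11 (adjusted p = 0.106), and by 1.02 under the same scaling. Rpl22l1 fell by 0.54 ± 0.13 (adjusted p = 0.00133), and was higher by 0.69 under that scaling.

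**Figure D4:**
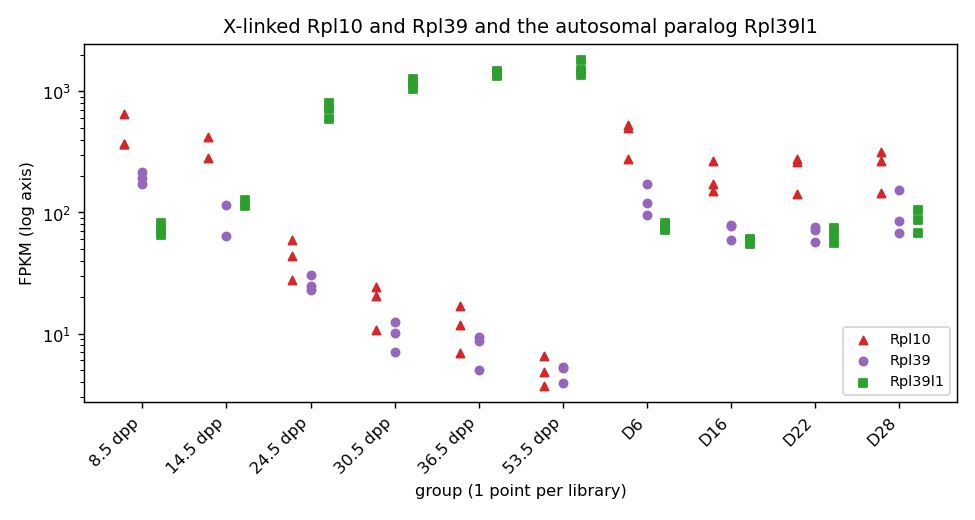
FPKM of the X-linked Rpl10 and Rpl39 and of the autosomal Rpl39l1, on a log axis, with 1 point per library in 10 groups. In vivo, Rpl39l1 goes up to 1353 to 1804 FPKM at 53.5 dpp while Rpl10 and Rpl39 end at 3.68 to 6.52 FPKM, and in culture all 3 stay between 54.6 and 528 FPKM.

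Several autosomal genes also fell steeply, though by 53.5 dpp less far than Rpl10 and Rpl39, a difference not tested between genes. At 30.5 dpp the log2 changes from 8.5 dpp of Rpl3 (-4.17) and Rpl39 (-4.18) were alike. Rpl3, which lines the peptidyl transferase centre, was at 624, 714 and 589 FPKM at 8.5 dpp, at 47.8, 33.2 and 25.8 FPKM at 30.5 dpp and at 25.4, 38.4 and 38.0 FPKM at 53.5 dpp. Its fall of 4.22 ± 0.30 (SE, limma adjusted p = 3.44e-09) was in place by 30.5 dpp. Rps3, a small-subunit protein at the mRNA entry that also acts in DNA repair, was more scattered at 8.5 dpp, at 267, 719 and 321 FPKM. It was at 42.1, 17.5 and 21.5 FPKM at 53.5 dpp, a fall of 3.92 ± 0.41 (adjusted p = 3.19e-07). Rpsa, the laminin-receptor protein of the small subunit, went from 521, 686 and 890 FPKM to 53.6, 40.6 and 55.0 FPKM, a fall of 3.77 ± 0.26 (adjusted p = 2.28e-09). Rps16 fell by 3.73 ± 0.21 (adjusted p = 3.32e-10) and Rpl9 by 3.62 ± 0.17 (adjusted p = 3.26e-11).

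Rplp0, Rpl5 and Rpl22 fell by amounts close to the median of the 31. Rplp0, the stalk base that is often taken as a reference gene, was the highest of the 31 at 8.5 dpp, at 1633, 1278 and 1925 FPKM. It was at 228, 232 and 332 FPKM at 53.5 dpp, a fall of 2.61 ± 0.21 (SE, limma adjusted p = 1.63e-08). Rpl5, which binds 5S RNA and with Rpl11 restrains Mdm2, went from 441, 427 and 414 FPKM to 70.0, 80.9 and 71.2 FPKM, a fall of 2.52 ± 0.16 (adjusted p = 1.08e-09). Rpl22 fell by 2.71 ± 0.13 (adjusted p = 6.10e-11).

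Rpl11 was at 22.3, 25.7 and 25.7 FPKM at 8.5 dpp and at 6.73, 7.05 and 7.88 FPKM at 53.5 dpp. It fell by 1.64 ± 0.58 (SE, limma adjusted p = 0.0158). In the same fit, 30.5 dpp replicate 1 was at 62.4 FPKM beside 6.71 and 6.29 FPKM. A like value stood in D16 replicate 1, at 86.9 FPKM beside 8.91 and 6.67 FPKM. In both groups 1 library lies far above the other two.

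By group means, the smallest falls to 53.5 dpp among the 31 were those of Rpl38, Rps15 and Rpl41. Rpl38, which is known for its part in translating Hox mRNAs, was at 65.6, 71.5 and 48.4 FPKM at 8.5 dpp and at 35.7, 34.4 and 37.4 FPKM at 53.5 dpp. It fell by 0.75 ± 0.20 (SE, limma adjusted p = 0.00296), close to the median of all genes, and was higher by 0.46 under median-ratio size factors. Rps15, a small-subunit protein near the decoding site, was at 510, 581 and 327 FPKM and then at 238, 212 and 260 FPKM. Its fall of 0.96 ± 0.27 (adjusted p = 0.0035) turned to 0.27 under that scaling. Rpl41, the smallest of the proteins, fell by 1.40 ± 0.17 (adjusted p = 1.37e-06), from 1274, 1277 and 1116 FPKM to 437, 435 and 518 FPKM. At 53.5 dpp it was the highest of the 31, with Rplp0 next and Rps15 after it, where Rps15 had been at place 11 at 8.5 dpp and Rpl10 went from place 12 to place 29.

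Explants were next set against 8.5 dpp testes, the age at which they were cut. Relative to that age the genes lost part of their level in culture, and less than in vivo. At D6, 15 of the 31 were lower and 0 higher in limma, where 20.5% of all genes tested were lower and 27.7% higher. At an unadjusted p under 0.05, 18 were lower and 0 higher, and of all 11539 genes tested 2710 were lower and 3576 higher. The count of all members past the test at D6 was 18, and 11 without 8.5 dpp replicate 3, D6 replicate 1 or D6 replicate 2. The counts of all genes without these libraries are not given here. At D28, 25 of the 31 were lower and 0 higher (27.6% and 32.1% of all 11539 genes). At an unadjusted p under 0.05 these were 25 and 0, against 3396 and 3933 of all genes tested. Every D28 library was below every 8.5 dpp library in 23 of the 31, an order that 28.7% of all genes tested showed. By group means the median fall to D28 was 1.69-fold. The median log2 change at D28 was -0.81 over the 31, -0.74 over the 50 members that passed the filter and 0.04 over all genes tested.

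The 31 genes differed among themselves in how far they moved. At D28 their log2 changes from 8.5 dpp spread from -1.21 in Rps16 to 0.01 in Rps3 (SD over genes 0.32), and at 53.5 dpp from -6.24 to -0.75 (SD over genes 1.17). At 14.5 dpp, where the median change in vivo was -0.79 and so near that of D28, the SD over genes was 0.35. This is a description over genes, without a test. Rps16, a small-subunit protein, fell the most at D28, by 1.21 ± 0.20 (SE, limma adjusted p = 0.000219), from 1039, 901 and 1180 FPKM to 635, 344 and 409 FPKM. Rps14 fell by 1.14 ± 0.21 (adjusted p = 0.000475), Rpl7 by 1.12 ± 0.14 (adjusted p = 1.33e-05) and Rpl23a by 1.11 ± 0.14 (adjusted p = 2.30e-05). Rpl10 was at 316, 266 and 144 FPKM at D28, a fall of 0.95 ± 0.37 (adjusted p = 0.0412). Rpl39 was at 153, 68.3 and 85.7 FPKM, a fall of 0.99 ± 0.27 (adjusted p = 0.00631). Rplp0 was at 1484, 1034 and 1215 FPKM, a fall of 0.37 ± 0.14 (adjusted p = 0.0382), and its change was 0.01 under quantile normalization. The 6 genes that did not pass were Rpl11, Rpl38, Rpl41, Rps2, Rps3 and Rps15.

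**Figure D5:**
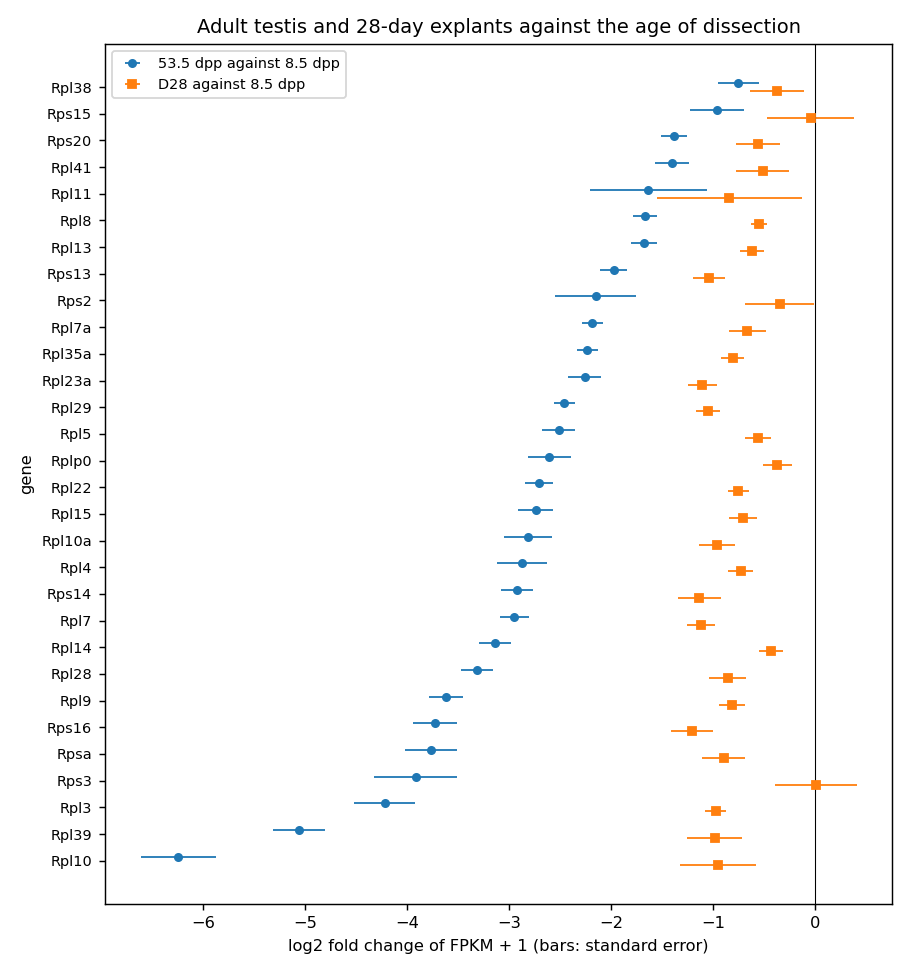
Log2 fold change of FPKM + 1 against 8.5 dpp testes for 30 of the 31 ribosomal protein genes, in adult testes of 53.5 dpp (blue circles) and in explants after 28 days (orange squares), with bars for the standard error. In vivo changes run from -6.24 in Rpl10 to -0.75 in Rpl38, and those of the explants from -1.21 in Rps16 to 0.01 in Rps3.

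Against 14.5 dpp testes, the prepubertal reference of the study, few members differed in cultured tissue. At D16, 1 of the 31 was lower and 0 higher, where 18.2% and 15.4% of all 11517 genes tested were called. At D22, 2 were lower and 0 higher (19.4% and 16.9%), and at D28, 1 was lower and 2 higher (23.1% and 18%). At an unadjusted p under 0.05, 1 of the 31 was higher at D16 and 0 at D22, against 2302 and 2399 of all genes tested. Rpl23a, a large-subunit protein near the tunnel exit, was lower at all 3 times, by 0.60 ± 0.18 at D16 (limma adjusted p = 0.0324), 0.69 ± 0.18 at D22 (adjusted p = 0.0165) and 0.53 ± 0.18 at D28 (adjusted p = 0.0441). Rpl8 was lower at D22 by 0.38 ± 0.13 (adjusted p = 0.0429). Rpl9 was higher at D28 by 0.54 ± 0.16 (adjusted p = 0.0224) and Rpl14 by 0.49 ± 0.14 (adjusted p = 0.0215). In a fit of D28 and 14.5 dpp alone, the calls of Rpl9, Rpl14 and Rpl23a at D28 were lost.

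A p that misses the threshold does not show that the tissues are alike, since the reference holds 2 libraries that differ. At D28 the log2 changes from 14.5 dpp ran from -0.58 in Rpl10 to 0.63 in Rps3, with a median of 0.07 over the 31, -0.01 over the 53 members that passed the filter and -0.08 over all genes. More members than these 3 passed the test at D28 without D28 replicate 1 or D28 replicate 2. The same was seen without 14.5 dpp replicate 1, a fit that keeps 1 library of that age. The counts of all genes under these settings are not given here. The median of the members was 0.18 without 14.5 dpp replicate 1 and -0.16 without D28 replicate 1. D28 means were above D22 means in 27 of the 31 genes, and in 22 without D28 replicate 1, which was the highest of the 3 in 26. The shares of all genes with these orders are not given here.

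Tissue of the same age was compared last. At D6, all 31 fitted changes from 14.5 dpp were above 0, as were 5202 of those of all 11309 genes tested. The 31 share the same libraries, and 14.5 dpp replicate 1 was above replicate 2 in 30 of them. Their signs are therefore not separate observations. In the test, 7 of the 31 passed as higher (9.13% of all genes tested). They were Rps3, Rpl7, Rpl14, Rpl29, Rpl10a, Rpl9 and Rpl35a, with the largest change in Rps3, at 489, 488 and 493 FPKM against 284 and 230 FPKM. None of the 31 was lower in limma (6.38% of all genes). At an unadjusted p under 0.05, 0 were lower and 13 higher, against 1991 and 1848 of all genes tested. Every D6 library was above both 14.5 dpp libraries in 15 of the 31, as in 23.8% of all genes tested. Among all 54 members tested 9 were higher, and 1 with the replicate number as a block. Fewer than 9 passed when D6 replicate 1, 2 or 3 was left out, with the lowest count, 2, without D6 replicate 3. Fewer also passed without 14.5 dpp replicate 2, a fit that keeps 1 library of that age. The counts of all genes under these settings are not given here.

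From D16 on, the explants were higher than testes of their age. At D16, 26 of the 31 were higher than at 24.5 dpp (40.5% of all genes tested), at D22 26 were higher than at 30.5 dpp (54.2%), and at D28 29 were higher than at 36.5 dpp (56.4%). Of the 31, 0 were lower at any of the 3 in limma, where 31.9%, 30.7% and 29.8% of all genes were called lower. At an unadjusted p under 0.05 it was also 0, against 3841, 3759 and 3667 of all genes tested. Every D28 library was above every 36.5 dpp library in 29 of the 31, an order that 56.8% of all genes tested showed. The median log2 difference at D28 was 1.53 over the 46 members tested and 0.64 over all genes tested. Under median-ratio size factors these were 0.59 and -0.06, and 22 members passed the test in place of 36. The number of all genes that passed under that scaling is not given here.

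The largest of these differences were those of Rpl10, Rps3 and Rpl39. Rpl10 was at 316, 266 and 144 FPKM at D28 and at 16.7, 11.7 and 6.98 FPKM at 36.5 dpp, higher by 4.25 ± 0.37 on the log2 scale (SE, limma adjusted p = 2.02e-05). Rps3 was at 463, 397 and 341 FPKM against 55.0, 22.5 and 19.2 FPKM, higher by 3.74 ± 0.37 (adjusted p = 4.04e-05). Rpl39 was higher by 3.53 ± 0.33 (adjusted p = 2.97e-05), and its copy Rpl39l1 was lower by 4.04 ± 0.16 (adjusted p = 3.96e-07). In each of these genes the groups do not overlap.

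Rpl3 was higher at D28 by 2.58 ± 0.15 (SE, limma adjusted p = 2.46e-06), Rpsa by 2.22 ± 0.15 (adjusted p = 4.59e-06), Rplp0 by 2.18 ± 0.24 (adjusted p = 7.89e-05) and Rpl5 by 1.78 ± 0.16 (adjusted p = 2.37e-05). Rpl38 and Rpl11 did not pass, with differences of 0.34 ± 0.27 (adjusted p = 0.266) and 0.70 ± 0.39 (adjusted p = 0.125), which turned to -0.59 and -0.16 under median-ratio size factors.

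Whether culture changed the course itself was tested as the change from D6 to D28 less the change from 14.5 to 36.5 dpp. In limma this difference was above 0 in 24 of the 31, where 50.9% of all 12482 genes tested were called in that direction. It was below 0 in 0 of the 31 (25.5% of all genes). At an unadjusted p under 0.05 it was also below 0 in 0 of the 31, against 3246 of all genes tested. Rpl10 changed by -4.82 in vivo and by -0.86 in culture, a difference of 3.97 ± 0.57 (SE, adjusted p = 0.000108). Rpl39 changed by -3.36 and -0.37, a difference of 2.99 ± 0.53 (adjusted p = 0.000492). Rpl39l1 changed by 3.55 and 0.15, a difference of -3.40 ± 0.21 (adjusted p = 2.66e-07). For Rpl38 the difference was 0.28 ± 0.49 (adjusted p = 0.609) and for Rps15 0.86 ± 0.57 (adjusted p = 0.192), and neither passed the test. Under median-ratio size factors 14 of the members passed in either direction, in place of 30. How many of all genes passed under that scaling is not given here.

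Other parts of the translation machinery are given by their counts at 53.5 against 8.5 dpp, where 58.3% of all genes tested fell and 28.7% rose. Of 65 mitochondrial ribosomal proteins tested, which serve the ribosomes of mitochondria, 45 fell and 4 rose, with a median log2 change of -1.04. Of 41 genes for ribosome assembly and rRNA synthesis, 32 fell and 4 rose, with a median of -1.31. Nop56, a core protein of box C/D particles, fell by 3.35 ± 0.22 (SE, limma adjusted p = 1.57e-09), and Polr1a, the largest subunit of RNA polymerase I, by 1.43 ± 0.10 (adjusted p = 3.52e-09). Of 18 translation factors and other genes with TOP mRNAs, 10 fell and 3 rose, with a median of -1.58, and the 55.6% that fell is no more than the share over all genes. Rack1, a scaffold on the small subunit, fell by 4.41 ± 0.31 (adjusted p = 3.19e-09), while Eef1d rose by 2.74 ± 0.18 (adjusted p = 1.76e-09) and Pabpc1, the poly(A)-binding protein, by 2.02 ± 0.16 (adjusted p = 1.70e-08). Of 15 regulators, 10 fell and 3 rose, with Mycn lower by 4.03 ± 0.13 (adjusted p = 9.37e-13) and Mtor higher by 0.81 ± 0.09 (adjusted p = 5.57e-07). Among the others, Rptor fell by 1.68 and Rheb by 2.64, while Mdm2 rose by 1.89 and Tsc1 by 1.43. Fau, the ubiquitin-like fusion of a small-subunit protein, was listed at 0 in all libraries of both ages.

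At D28 against 36.5 dpp, 32 of 64 mitochondrial ribosomal proteins were higher and 12 lower, as were 25 and 4 of 40 assembly genes, 8 and 4 of 18 translation factors and 11 and 2 of 15 regulators. Over all genes tested 56.4% were higher and 29.8% lower, and the shares higher among mitochondrial ribosomal proteins (50%) and translation factors (44.4%) lay below that. The medians of these lists were 0.37, 0.81, 0.49 and 1.56, against 1.53 for the ribosomal protein genes and 0.64 for all genes tested. The lists differ in size and share no test of a difference.

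Cell type markers also differed between these groups, in different directions. The summed FPKM of 5 spermatid markers was 3.64 to 6.57 at 8.5 dpp, 2838 to 4317 at 36.5 dpp and 11428 to 16875 at 53.5 dpp, and 3.66 to 4.23 at D28, where Prm1, Tnp1 and Acrv1 were at 0. That of 5 spermatocyte markers was 5.72 to 6.11 at 8.5 dpp, 850 to 981 at 24.5 dpp, 223 to 281 at 53.5 dpp and 17.9 to 34.2 at D28. Sertoli cell markers (5 genes) were at 228 to 418 at 8.5 dpp, 58.6 to 64.3 at 53.5 dpp and 690 to 807 at D28. Peritubular markers (4 genes) were at 645 to 693, 31.2 to 38.0 and 80.4 to 122 in the same groups, and endothelial markers (3 genes) were at 42.3 to 45.4, 0.844 to 1.94 and 45.7 to 69.6. Leydig cell markers (5 genes) were at 133 to 191 at 8.5 dpp, 117 to 200 at 53.5 dpp and 6.84 to 6.94 at D28. Macrophage markers (4 genes) were at 8.79 to 9.40, 1.57 to 2.68 and 19.3 to 36.8 in these groups, early germ cell markers (4 genes found) at 31.5 to 33.5, 86.7 to 102 and 57.2 to 113, and blood markers (2 genes found) at 284 to 699, 14.5 to 32.1 and 4.41 to 8.49. The part of cell composition in the falls of the ribosomal protein genes was not tested.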

How the data were processed

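RNA was measured in 17 in vivo and 12 cultured libraries of rat testis. Per the labels and the study's methods, the authors made stranded poly(A) libraries, aligned short single-end reads to rn6 with STAR 2.5.2a, quantified RefSeq transcripts with StringTie and deposited values per gene as FPKM, for which the methods write RPKM. Symbols came from a RefSeq table (GRCr8), which matched 17172 of 17322 identifiers. FPKM were transformed to log2(FPKM + 1), a scale that understates changes of low genes. A gene was tested where the median of some group in the fit reached 0.5 FPKM, with limma 3.58.1 in R 4.3.3 (lmFit, eBayes), adjusted by Benjamini-Hochberg over all genes tested, and passed at an adjusted p of at most 0.05. The 5 older ages against 8.5 dpp shared 1 fit of 6 groups, D16, D22 and D28 against 14.5 dpp 1 fit of 4, and cultures against 8.5 dpp 1 fit of 5. Cultures against their age, and the difference of courses, had fits of their own groups. All p-values measure the spread between these libraries.

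Members and lists were chosen with earlier results of these data known. The 31 genes without a 0 were set apart after the values were seen. Named genes are X-linked members, paralogs and their parents, stalk proteins, genes with known roles, the 3 highest and lowest of a comparison among the 31, and members listed at 0 in some library. Some genes that meet this rule are counted but not reported here by name. Promoter words were chosen after the expression values were seen. Tests were tested on simulated data. Alternatives changed the pseudocount, filter, scaling, prior variance, replicate block, groups fitted and libraries. Tables and figures used Python 3.11.15, numpy 2.4.6, pandas 2.3.3 and matplotlib 3.10.9.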

Additional observations from a re-analysis of the deposited data

Results flagged for a closer look

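The change over the same span differed between culture and testis by the test of the difference itself (limma, D6 to D28 less 14.5 to 36.5 dpp). It was higher in culture for 29 of the 55 ribosomal protein genes tested (52.7%), a share near the 50.9% of all genes tested. For Rpl10 the difference was 3.97 on the log2 scale, for Rpl39 2.99, and for Rpl39l1 -3.40. Groups of 2 or 3 libraries were not searched for single outlying libraries.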

How the results depend on the processing

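Which calls rested on the processing was read from each alternative in turn. Counts are of members, without the counts of all genes under the same setting, so a shift need not be particular to the members. Under median-ratio size factors the members' median was -1.49 at 53.5 against 8.5 dpp, 0.59 at D28 against 36.5 dpp and 0.012 at D28 against 14.5 dpp, and the counts past the test were 22 at D28 against 36.5 dpp, 14 for the difference of courses, 2 at D16 and 1 at D22 against 14.5 dpp. Single genes turned there: at 53.5 dpp Rps15 to 0.27, Rpl38 to 0.46, Rps4y2 to 1.11, Rpl36al1 to 1.02 and Rpl22l1 to 0.69, and at D28 against 36.5 dpp Rpl11 to -0.16 and Rpl38 to -0.59. Quantile normalization gave 16 at 14.5 and 10 at D6 against 8.5 dpp, 2 at D16 and 4 at D22 against 14.5 dpp, and turned Rplp0 at D28 against 8.5 dpp to 0.0056. Without the genes listed at 0 the median was -2.71 at 53.5 dpp and 0.066 at D28 against 14.5 dpp. A pseudocount of 0.1 FPKM gave 1 at D22 and 5 at D6 against 14.5 dpp. An intensity trend gave 2 at D16, and a fit of 2 groups 2 at D16 and 0 at D28 against 14.5 dpp. The cause of these shifts was not tested.

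The replicate block gave 2 at D16, 1 at D22 and 1 at D6 against 14.5 dpp, and moved no other count by over 1.5 times. Same-numbered libraries share only a number, with correlations of their deviations from -0.12 to 0.11, and no set of pairs was above 0.1 throughout.

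Leaving out 1 replicate at a time gave 14 to 28 members past the test at 14.5 against 8.5 dpp (14 without 14.5 dpp replicate 2), 11 to 22 at D6 against 8.5 dpp and 2 to 9 at D6 against 14.5 dpp. Against 14.5 dpp it gave 0 to 4 at D16 (0 without D16 replicate 1, 3 and 4 without 14.5 dpp replicates 1 and 2), 1 to 6 at D22 (1 without D22 replicate 2, 4 and 6 without 14.5 dpp replicates 1 and 2) and 2 to 6 at D28, and a median at D28 of -0.16 to 0.18, with 0.11 without D28 replicate 2 or 3. The median went from -2.71 to -2.32 at 53.5 dpp and from 1.34 to 1.84 at D28 against 36.5 dpp. Where 1 library of 14.5 dpp remained, it was assumed to vary like the other groups.

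Depth is unknown, so no floor can be given for values listed at 0, and groups of 2 or 3 libraries limit what small changes can show.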
